A study of Homo sapiens with 12 samples.

Results

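Genes that encode shapers of the endoplasmic reticulum (ER), 7 in all, were followed through a knockdown of circASH2, a circular RNA. They are the reticulons RTN3 and RTN4, the atlastins ATL2 and ATL3, the receptor expression-enhancing proteins REEP3 and REEP5, and the sheet protein CKAP4. They were picked by name from the 23583 features of the gene table, with their levels in these libraries already known, so the values of these 7 genes are given as a description with no p-value. All 7 were among the 16946 features that passed the filter on low counts.

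The libraries came from cultures of Huh7, a hepatocellular carcinoma line that keeps many liver functions, and of HCCLM3, a carcinoma line known for its metastatic behaviour. Each line carried either si-NC, the negative control siRNA, or si-circASH2, the siRNA aimed at the circular RNA, and the 4 resulting groups held 3 libraries each. The labels name no other treatment, time after transfection, siRNA sequence or separate culture for the 3 libraries of a group, so all errors and tests rest on the spread of such libraries, and part of it may be technical. No row of the gene table could be matched to circASH2 by its identifier, so its own level was not analysed here. Total counts were between 29006781 and 30858895 per library. Of 11 hepatocyte markers, 11 reached a level of 1 CPM (counts scaled to library size, with TMM factors) in Huh7 and 8 in HCCLM3. The summed levels were 37600 to 40100 CPM and 5490 to 5760 CPM. ALB was highest in Huh7 with si-NC and APOB with si-circASH2. Most of the HCCLM3 sum was KRT8, at 3940 CPM with si-NC and 4100 CPM with si-circASH2. The summed level of 7 leukocyte markers was 384 to 421 CPM in Huh7 with si-NC and 340 to 368 CPM with si-circASH2, with LYZ highest. In HCCLM3 it was 151 to 172 CPM and 177 to 213 CPM, with CD68 highest, while CD3E, the T cell marker, was at 0 in all 4 groups. For 5 endothelial markers the sums were 24.1 to 27.5 CPM and 23.7 to 24.4 CPM in Huh7, and 26.1 to 27.9 CPM and 20 to 22.1 CPM in HCCLM3, with PECAM1 highest. The summed level of 7 fibroblast markers was 34.3 to 40.1 CPM in Huh7 with si-NC and 56.7 to 57.7 CPM with si-circASH2, against 35.6 to 37.9 CPM and 48.9 to 53.5 CPM in HCCLM3, and POSTN was at 0 throughout. In Huh7 most of that sum was COL1A2 and in HCCLM3 most of it was LUM. The part of these marker sums in the results below was not tested. Fewer cells with a transcript and less transcript per cell cannot be told apart in bulk RNA.

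The ER is one continuous membrane of flat sheets and curved tubules. Reticulons and the REEP5 class of REEP proteins carry hairpins that wedge into the outer leaflet and bend the membrane into tubules. Atlastins are membrane-bound GTPases that fuse tubules into 3-way junctions, and CKAP4 is a coiled-coil protein of the sheets that also links the ER to microtubules. RTN4 is better known as Nogo, whose longest form inhibits the growth of axons.

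Short 3′ UTR sequences are shown first because 2 overlapping sequences of 7 bases, TTATACC and TATACCA, stood out in an earlier analysis of these same fold changes, together with TCGGAGAA. They were searched on the sense strand of GENCODE 29 transcripts (GRCh38), and together the 2 sequences of 7 bases make up TTATACCA. RTN4 held TTATACCA in the 3′ UTR of 8 of its 11 coding transcripts, and ATL3 held TATACCA at 2 places in 1 of its 2 coding transcripts. Capitals mark the match.
RTN4, chr2:54972265-54972294, minus strand: aaaatgaagatTTATACCAttgtggtttaa
ATL3, chr11:63628383-63628412, minus strand: tcatatttaaaTATACCAtactctgaaatg
ATL3, chr11:63626057-63626086, minus strand: tattttcgtagTATACCAagaaatgttcta

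These letters were not found in the 3′ UTRs of RTN3, ATL2, REEP3, REEP5 or CKAP4. TATACCA also lay in the coding sequence of REEP3, and TCGGAGAA in that of CKAP4. Of 13991 tested genes with a 3′ UTR, 14.7% held TTATACC or TATACCA, 3.97% held TTATACCA and 0.736% held TCGGAGAA. Long UTRs hold them more often. Among genes whose longest 3′ UTR was within 20% of the 969 bases of RTN4, 1.83% held TTATACCA, and among those near the 5232 bases of ATL3, 25.1% held TATACCA. The matches are a description, and no site was measured.

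RTN4 lost the most of the 7. In Huh7 its level was 418, 398 and 418 CPM in the si-NC libraries and 163, 157 and 172 CPM in the si-circASH2 libraries. The HCCLM3 libraries gave 543.5, 534 and 515 CPM with si-NC and 278, 275 and 281.5 CPM with si-circASH2. In both lines every knockdown library was below every control library, with a wide gap. The means ± SD (n = 3) were 411 ± 11.3 and 164 ± 7.72 CPM in Huh7, and 531 ± 14.4 and 278 ± 3.14 CPM in HCCLM3. The log2 fold change was -1.33 ± 0.04 (standard error of the fit, as for all log2 fold changes here) in Huh7, a level 2.51-fold lower. It was -0.93 ± 0.04 in HCCLM3, a level 1.91-fold lower. Ordered from the most negative, RTN4 was at place 185 of the 16946 log2 fold changes in Huh7 and at place 493 in HCCLM3. The effect was smaller in HCCLM3 by 0.39 ± 0.05 on the log2 scale. RTN4 lies at chr2:54972187-55112621 on the minus strand (ENSG00000115310.17), and the only feature of the annotation that overlaps it is a small nuclear RNA pseudogene with no row in the gene table.

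**Figure D1:**
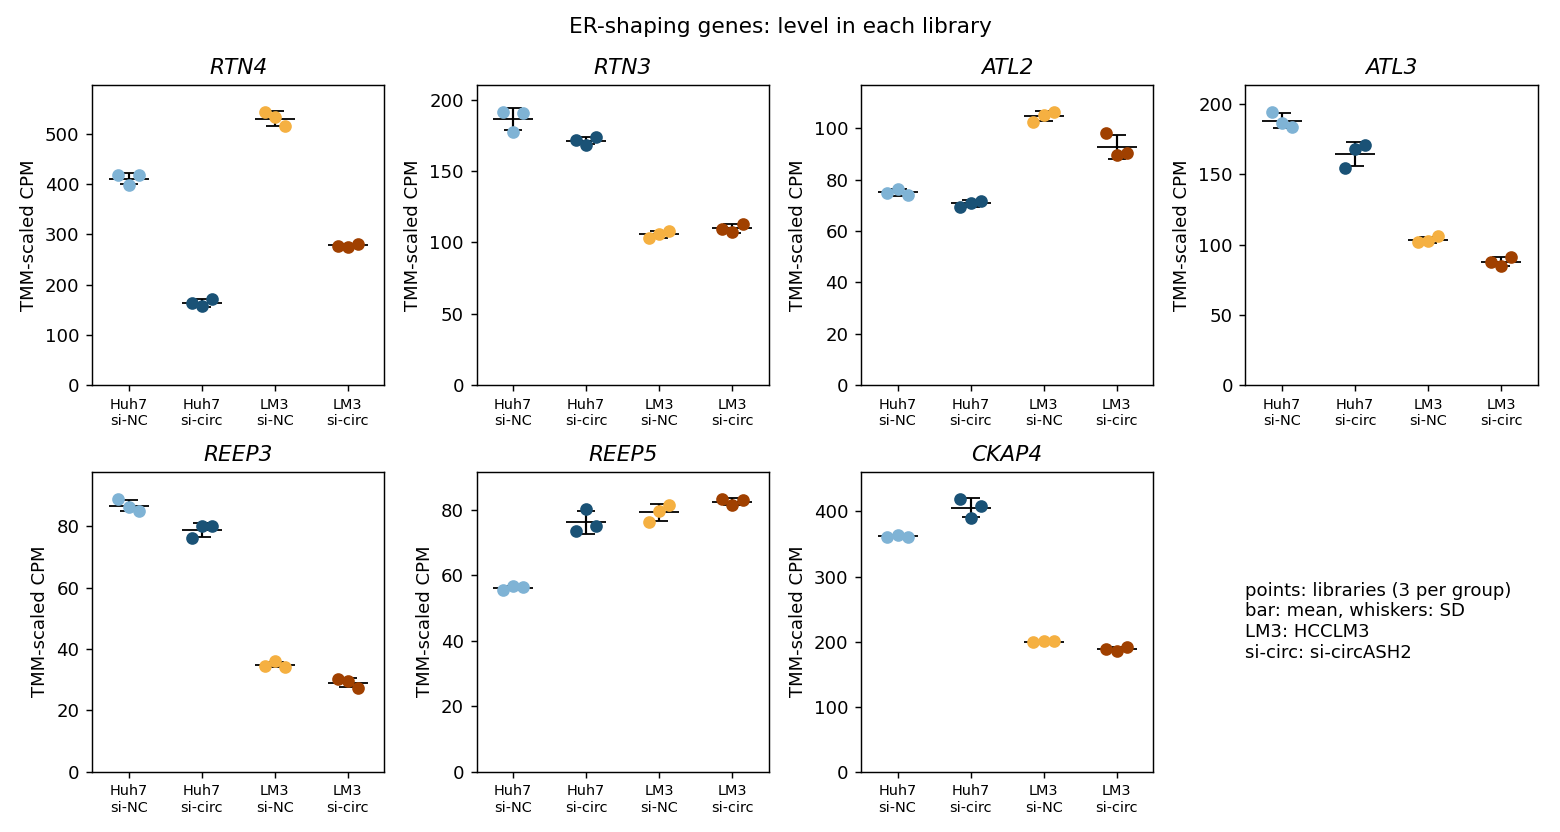
TMM-scaled CPM (vertical axes from 0) of the 7 genes in each of the 12 libraries, with the mean and SD of the 3 libraries of a group. RTN4 falls from 398 to 418 CPM to 157 to 172 CPM in Huh7, while the controls and knockdowns of the other 6 genes lie much closer to each other.

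RTN3, the other broadly expressed reticulon, which also acts as a receptor for the autophagy of ER tubules, moved little. In Huh7 its level was 191, 177 and 190.3 CPM with si-NC and 172, 168 and 173 CPM with si-circASH2. Values in HCCLM3 were 103, 105.5 and 108 CPM with si-NC and 109, 107 and 113 CPM with si-circASH2. The Huh7 groups did not overlap but came close, with 177 and 173 CPM in their nearest libraries, and the HCCLM3 groups overlapped. The log2 fold change was -0.12 ± 0.04 in Huh7 and 0.06 ± 0.04 in HCCLM3. The call in Huh7 was lost with library size as the only scaling, and when replicate 1 or 3 of the controls or replicate 2 of the knockdown was left out, with log2 fold changes between -0.11 and -0.10. Limma on FPKM, in all 3 settings run, did not call it either and gave -0.04. RTN3 is on chromosome 11 at 63681446-63759891, plus strand (ENSG00000133318.13), and the annotation names a pseudogene RTN3P1. Whether reads were split between RTN3 and RTN3P1 was not tested, so the RTN3 count is uncertain to that extent.

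The balance between the reticulons changed on both scales. Deposited FPKM, which divide by length and so allow levels of different genes to be compared, put RTN4 2.54 times above RTN3 in Huh7 with si-NC (range over 3 libraries 2.17 to 2.83) and 1.05 times above it with si-circASH2 (1.02 to 1.09). In HCCLM3 the ratio was 6.9 (6.15 to 8.03) with si-NC and 2.74 (2.65 to 2.79) with si-circASH2. The ranges did not overlap in either line. In counts the ratio of CPM went from 2.21 (2.19 to 2.25) to 0.958 (0.931 to 0.992) in Huh7 and from 5.03 (4.76 to 5.27) to 2.53 (2.49 to 2.57) in HCCLM3, again with no overlap. The ranges of the control libraries were narrower in counts than in FPKM. Part of the FPKM step in HCCLM3 lay in RTN3, whose mean went from 28.3 to 37.6 FPKM while its CPM overlapped between the groups.

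The atlastins took smaller steps, in the same direction in both lines. ATL3 was at 194, 186.5 and 184 CPM in Huh7 with si-NC and at 155, 168 and 171 CPM with si-circASH2, a log2 fold change of -0.19 ± 0.04. HCCLM3 had 102, 102 and 106 CPM with si-NC and 87.7, 84.7 and 91.3 CPM, a change of -0.23 ± 0.04. Knockdown and control libraries of ATL3 did not overlap in either line, and the fall of 12.6% in Huh7 and 15% in HCCLM3 is a small part of that of RTN4.

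ATL2, the other atlastin found outside the nervous system, was at 74.9, 76.5 and 74.0 CPM in Huh7 with si-NC and at 69.4, 71.1 and 71.9 CPM with si-circASH2. The change was -0.09 ± 0.04 and was not called. The level in HCCLM3 was 103, 105 and 106 CPM with si-NC and 98.0, 89.7 and 90.6 CPM with si-circASH2, a change of -0.17 ± 0.04. In both lines the groups of ATL2 did not overlap. Si-circASH2 replicate 1 of HCCLM3 was nearest to the controls. ATL2 lies at chr2:38294880-38377285 on the minus strand (ENSG00000119787.13), and no annotated gene overlaps it. ATL1, the atlastin of neurons, did not pass the filter, with group means of 0.0233 to 0.345 CPM.

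The 2 REEP genes went apart. REEP5, which encodes a tubule-bending protein of the same fold as the yeast protein Yop1, was at 55.4, 56.6 and 56.5 CPM in Huh7 with si-NC and at 73.5, 80.2 and 75.0 CPM with si-circASH2. For HCCLM3 the values were 76.5, 79.6 and 81.6 CPM with si-NC and 83.4, 81.4 and 82.9 CPM with si-circASH2. The Huh7 groups were far apart and the HCCLM3 groups overlapped. The log2 fold change was 0.44 ± 0.04 in Huh7 and 0.06 ± 0.04 in HCCLM3, a difference of -0.38 ± 0.06.

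REEP5 shares part of its locus at chr5:112876379-112922539 (minus strand, ENSG00000129625.12) with SRP19 on the other strand, which encodes a subunit of the signal recognition particle. SRP19 changed by 0.48 ± 0.07 in Huh7 and by 0.06 ± 0.07 in HCCLM3, nearly as REEP5 did. The strand of the libraries is not given in the sources used here, so reads from SRP19 and REEP5 may not be fully separated. Between the lines with si-NC the pair differed, with 0.50 ± 0.04 for REEP5 and -0.05 ± 0.07 for SRP19.

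REEP3, which with REEP4 keeps ER membrane away from chromosomes in mitosis, was at 88.9, 86.2 and 85.1 CPM in Huh7 with si-NC and at 76.1, 80.0 and 80.0 CPM with si-circASH2. HCCLM3 had less of it, 34.6, 36.0 and 34.2 CPM with si-NC and 30.1, 29.4 and 27.4 CPM. Every knockdown library was below every control library, by log2 fold changes of -0.14 ± 0.04 in Huh7 and -0.27 ± 0.05 in HCCLM3. The call in Huh7 was lost when replicate 1 of the controls (-0.12) or replicate 1 of the knockdown (-0.12) was left out. REEP3 lies at chr10:63521363-63625123 on the plus strand (ENSG00000165476.13). Its start overlaps that of JMJD1C, on the other strand, which was at 63.9 and 69.5 CPM in Huh7 and 59.7 and 62.8 CPM in HCCLM3 and was not called in either line. The FPKM ratio of REEP5 to REEP3 went from 1.02 to 1.52 in Huh7 and from 3.6 to 4.5 in HCCLM3, with no overlap of the libraries.

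CKAP4, the sheet protein among the 7, was at 361, 364 and 361 CPM in Huh7 with si-NC and at 419, 390.2 and 408 CPM with si-circASH2. Libraries of HCCLM3 were at 199.5, 200.4 and 200.5 CPM with si-NC and at 189, 186 and 192 CPM with si-circASH2. The groups did not overlap in either line, with the knockdown libraries above the controls in Huh7 and below them in HCCLM3. The log2 fold change was 0.17 ± 0.03 in Huh7 and -0.08 ± 0.03 in HCCLM3, a difference of -0.25 ± 0.05. The HCCLM3 value was not called by edgeR, was called lower by DESeq2, and was called lower by edgeR when Huh7 si-circASH2 replicate 1 or 2 was left out. CKAP4 lies at chr12:106237877-106304279 on the minus strand (ENSG00000136026.13). TCP11L2 overlaps its upstream end on the other strand and had at most 8.29 CPM. In Huh7 TCP11L2 changed by 0.83 ± 0.22 and was called higher by edgeR, though its groups overlapped. Its change of 0.12 ± 0.18 in HCCLM3 was not called.

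**Figure D2:**
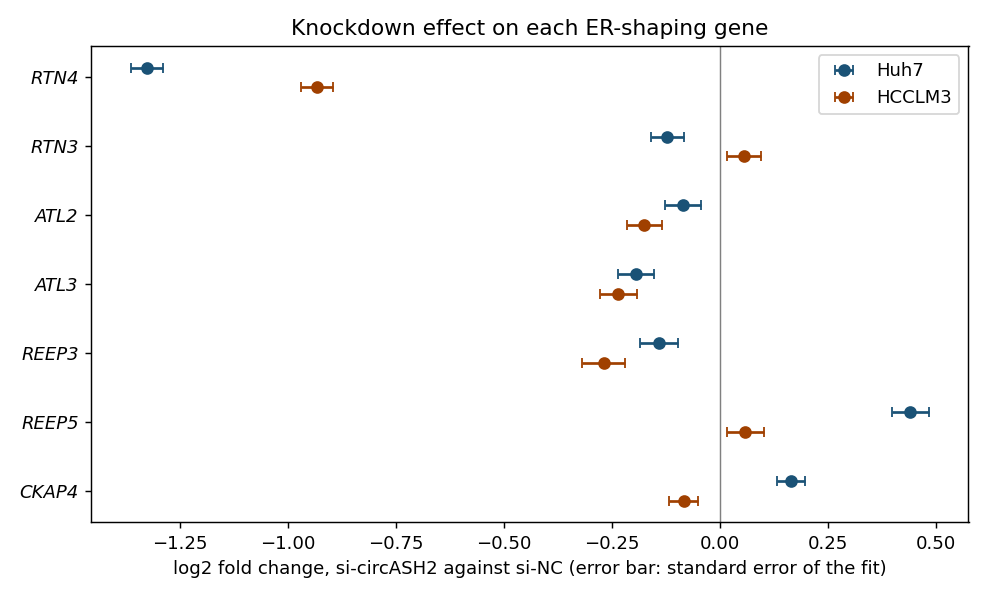
Log2 fold change of si-circASH2 against si-NC for each gene (horizontal axis), with the standard error of the fit, in Huh7 and in HCCLM3. RTN4 stands at -1.33 and -0.93, and the other 6 genes lie between -0.27 and 0.44.

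Called at an adjusted p of 0.05 by edgeR, 6 of the 7 genes changed in Huh7, where 31.4% of all features were called. RTN3, RTN4, ATL3 and REEP3 were lower, as were 15.1% of all features, and REEP5 and CKAP4 were higher, as were 16.3%. In HCCLM3 4 of the 7 were called, where 30.6% of all features were. These were RTN4, ATL2, ATL3 and REEP3, all lower, as were 15.5% of all features. None of the 7 was called higher there, as 15.1% of all features were, and edgeR gave 0 at an unadjusted p under 0.05, DESeq2 gave 0 and limma on FPKM gave 1, RTN3. Since the 7 were picked with these contrasts known, nothing is read from the counts.

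Libraries of the groups did not overlap for 7 of 7 genes in Huh7, against 42.7% of all features, and for 5 of 7 in HCCLM3, against 43.7%. The median log2 fold change of the 7 was -0.12 in Huh7 and -0.17 in HCCLM3, and over all features tested it was 0.01 and 0. RTN4, ATL3 and REEP3 were called lower in both lines, as were 5.71% of all features. RTN4 was past a fall of 1 on the log2 scale in Huh7, as were 0.437% of all features, and short of it in HCCLM3, where 0.956% were past it.

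The difference between the knockdown effects was called for 4 of the 7 genes and for 20.9% of all features. RTN3 and RTN4 had the higher value in HCCLM3, as had 9.6% of all features, and REEP5 and CKAP4 the lower one, as had 11.3%. RTN3, at 0.18 ± 0.06, lost this call when any 1 of 4 libraries was left out (0.15 to 0.16), and in 2 of the 3 limma settings on FPKM (0.44 and 0.46). The libraries were control replicates 1 and 3 of Huh7, and control replicate 1 and knockdown replicate 3 of HCCLM3. For ATL2, ATL3 and REEP3 the differences of -0.09 ± 0.06, -0.04 ± 0.06 and -0.13 ± 0.07 were not called, which does not show that the lines respond alike.

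Summed over the 7 genes, the level went from 1365 ± 19.2 to 1131 ± 18.4 CPM in Huh7, while HCCLM3 went from 1159 ± 6.04 to 869 ± 13.7 CPM. RTN4 made up 29.6 to 30.5% of the sum in Huh7 with si-NC and 14.1 to 14.9% with si-circASH2. In HCCLM3 its share was 44.7 to 46.8% and then 31.7 to 32.3%. Without RTN4 the sum of the other 6 was 947 to 965.5 CPM and 958 to 979 CPM in Huh7, where the groups overlapped. In HCCLM3 it was 618 to 637 CPM with si-NC and 578 to 597 CPM with si-circASH2, where they did not.

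Per length, the order of the genes in Huh7 with si-NC was RTN4 (145.5 FPKM), CKAP4 (103.5), RTN3 (57.9), ATL2 (24.0), ATL3 (23.5), REEP5 (15.1) and REEP3 (14.8). ATL2 and ATL3 overlapped, as did REEP5 and REEP3, while the other neighbours did not. From the highest to the lowest mean was a factor of 9.86. With si-circASH2 CKAP4 came first at 115 FPKM, and RTN4 at 58.8 ± 2.86 FPKM overlapped RTN3 at 56.3 ± 4.47 FPKM. REEP5 at 20.1 ± 1.23 FPKM then overlapped ATL3 at 20.5 ± 1.40 FPKM, which it had been below.

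In HCCLM3 the span was wider. RTN4 stood at 193 FPKM with si-NC and REEP3 at 5.95 FPKM, a factor of 32.4, and with si-circASH2 the factor was 20.8. No neighbours in either order overlapped. RTN4 kept the first place at 103 ± 2.02 FPKM with si-circASH2, and its ratio to CKAP4 went from 3.35 to 1.90, while in Huh7 this ratio went from 1.40 to 0.513. ATL2 was above RTN3 with si-NC (33.7 and 28.3 FPKM) and below it with si-circASH2 (29.7 and 37.6 FPKM). This switch rests in part on the FPKM of RTN3, whose CPM overlapped between these groups. The ATL3 to ATL2 ratio was 0.388 and 0.374, with overlap, against 0.981 and 0.919 in Huh7.

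**Figure D3:**
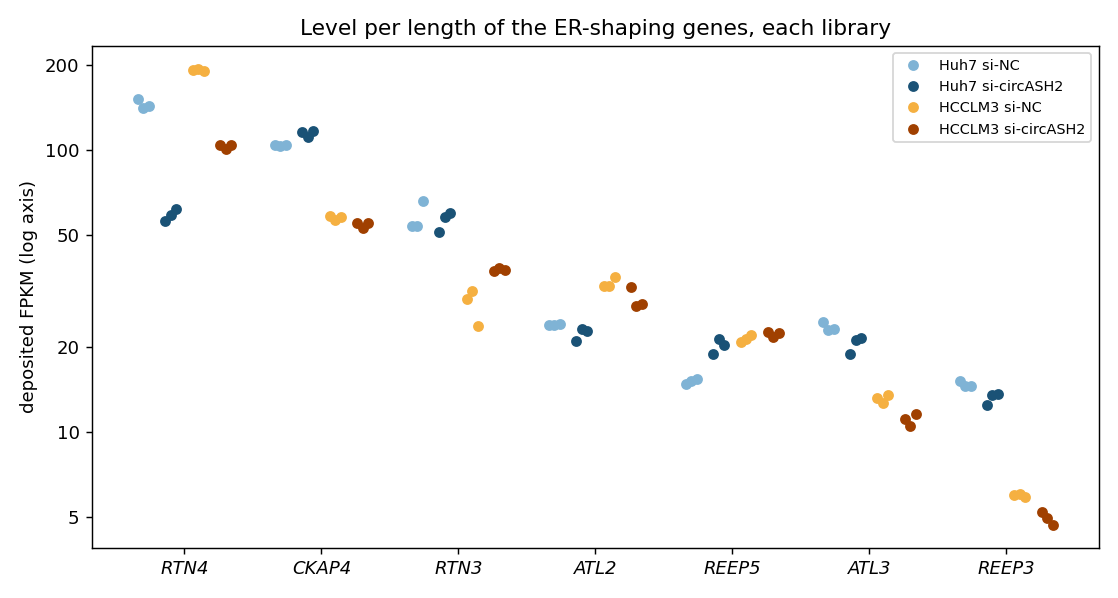
Deposited FPKM (log axis) of the 7 genes in each library of the 4 groups. RTN4 is the highest gene in 3 groups and meets RTN3 at 51.2 to 61.5 FPKM in Huh7 with si-circASH2.

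Before any knockdown the lines already differed. With si-NC, RTN4 (0.37 ± 0.04), ATL2 (0.48 ± 0.04) and REEP5 (0.50 ± 0.04) were higher in HCCLM3 than in Huh7 on the log2 scale, and RTN3 (-0.82 ± 0.04), ATL3 (-0.86 ± 0.04), REEP3 (-1.31 ± 0.05) and CKAP4 (-0.85 ± 0.03) were lower. All 7 were called, as were 85.2% of all features (41.6% higher and 43.6% lower), and for all 7 the libraries did not overlap, as for 86.5%. A difference between these lines was thus the rule. The 4 REEP genes outside the 7 were all called lower in HCCLM3 by edgeR. This contrast shares its si-NC libraries with both knockdown comparisons, and no correlation between them is given.

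ATL3 and RTN3 lie head to head on chromosome 11, ATL3 at 63624087-63671921 on the minus strand (ENSG00000184743.12) and RTN3 on the plus strand, with 9524 bases and no annotated gene between them. With si-NC the log2 differences between the lines were close, at -0.86 for ATL3 and -0.82 for RTN3. Such closeness is not particular to this pair, since CKAP4 on chromosome 12 was at -0.85. The knockdown effects of ATL3 and RTN3 were less alike, -0.19 and -0.12 in Huh7 and -0.23 and 0.06 in HCCLM3.

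Counts and FPKM told different stories for RTN3. In HCCLM3 the FPKM was 29.5, 31.6 and 23.8 with si-NC and 37.3, 38.1 and 37.5 with si-circASH2, with no overlap, although the CPM overlapped. Limma on log2(FPKM + 1) gave a log2 fold change of 0.41 where the counts gave 0.06. Count per FPKM can be turned into the length that each pair of values implies. For RTN3 this was 3293 to 4535 bases in HCCLM3 with si-NC and 2805 to 3078 bases with si-circASH2, a log2 ratio of -0.36. Over the 11021 features compared, the median ratio in HCCLM3 was 0.02 and the 5th percentile was -0.06, and 8.48% had no overlap between the groups.

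The longest coding transcript of RTN3 in the annotation has 4937 bases and the shortest 1407, so the implied lengths fall among its isoforms. In Huh7 the implied RTN3 length was 2892 to 3519 bases with si-NC and 2921 to 3357 bases with si-circASH2, which overlapped. The log2 ratio was -0.07, below the 5th percentile of -0.04 over the same features, whose median in Huh7 was 0.04. Of these features, 50.1% had no overlap between the groups in Huh7. RTN4, with coding transcripts of 656 to 4790 bases, had nearly one implied length in the 4 groups, with means of 2718 to 2809 bases, 0.567 to 0.586 times its longest coding transcript. For ATL2, ATL3, REEP3, REEP5 and CKAP4 the implied length was 1.08 to 1.15 times the longest coding transcript. Isoforms were not counted in the files used here, so whether the RTN3 isoforms changed was not tested.

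**Figure D4:**
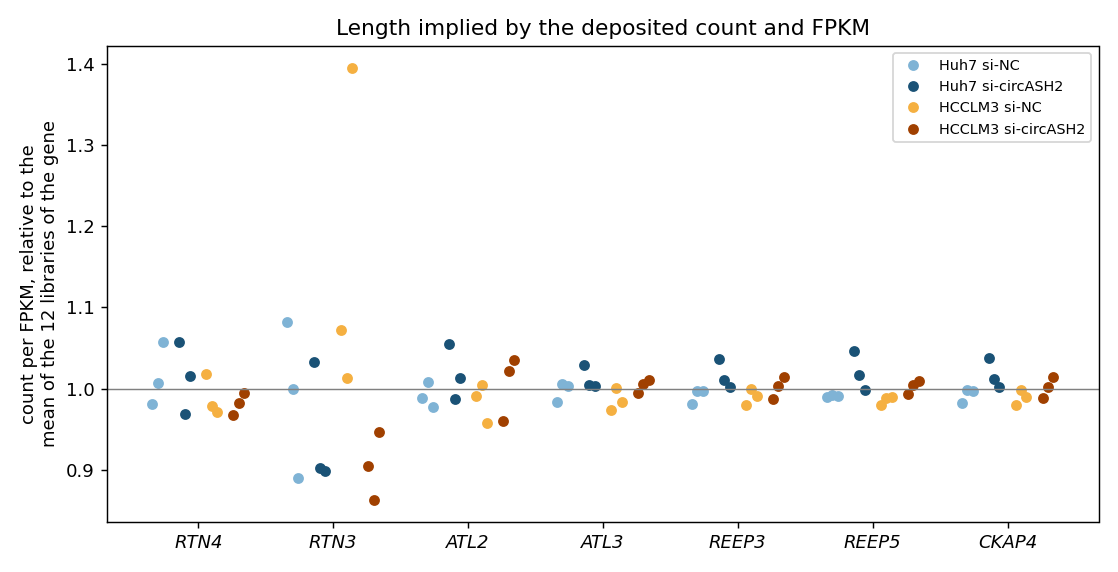
Count per FPKM of each gene in each library, divided by the mean of that gene over the 12 libraries (vertical axis, no unit). For RTN3 all HCCLM3 si-NC libraries lie above 1, the highest at 4535 implied bases, and all HCCLM3 si-circASH2 libraries below it, while the points of the other genes stay close to 1.

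The other genes of the same membranes were counted in 8 lists without the 7, which were drawn up with earlier results of these data known. Of 77 tested genes, 12 rose and 14 fell in Huh7 (33.8% called, median log2 fold change 0), and 4 rose and 27 fell in HCCLM3 (40.3% called, median -0.09). Over all features 31.4% were called in Huh7, near the share of the listed genes, and 30.6% in HCCLM3. For comparison with each list below, 16.3% of all features rose and 15.1% fell in Huh7. In HCCLM3 15.1% rose and 15.5% fell. Adjusted p-values here are from edgeR's quasi-likelihood test with Benjamini-Hochberg adjustment over all features. Of the remaining reticulons, RTN2 went from 5.31 ± 1.02 to 7.16 ± 0.70 CPM in Huh7, a change of 0.43 ± 0.15 (adjusted p = 0.033). In HCCLM3 RTN2 went from 5.99 ± 0.63 to 4.19 ± 0.70 CPM, a change of -0.52 ± 0.16 (adjusted p = 0.0145). The effects differed by -0.95 ± 0.22 (adjusted p = 0.00277). The RTN2 call in Huh7 was lost without control replicate 1 or 3 or knockdown replicate 1 or 3 (0.29 to 0.46), and the call in HCCLM3 without control replicate 3 (-0.44) or knockdown replicate 2 (-0.38). RTN1, a neuronal reticulon, had 1.1 ± 0.18 and 1.2 ± 0.20 CPM in Huh7, and in HCCLM3 both groups were at or under the level of 3 counts.

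The REEP genes outside the 7 were also lower where they were called. REEP4, the mitotic partner of REEP3, fell from 54.5 ± 3.12 to 39.5 ± 0.49 CPM in Huh7 (-0.46 ± 0.06, adjusted p = 4.29e-06), and in HCCLM3 it was at 29.5 ± 0.79 and 29 ± 3.32 CPM. REEP6, which is of the REEP5 class, fell from 50.3 ± 2.22 to 36.9 ± 1.32 CPM in Huh7 (-0.45 ± 0.08, adjusted p = 0.000125), and in HCCLM3 it was at 4.95 ± 1.09 and 5.39 ± 0.54 CPM. For both genes the effects differed between the lines, by 0.44 ± 0.09 (adjusted p = 0.00132) and 0.57 ± 0.15 (adjusted p = 0.00687). REEP4 and REEP6 thus went down in Huh7, where REEP5 went up. REEP2 fell in HCCLM3 at a level of 0.405 and 0.145 CPM, a call lost without knockdown replicate 3 (-1.12), and REEP1 was not called in either line.

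Of the 2 sheet proteins beside CKAP4, KTN1 (kinectin) and RRBP1 (the ribosome receptor p180), neither was called in either line, though RRBP1 was called higher in Huh7 by DESeq2 (0.09), with upper quartile factors or library size only (0.11), with the replicate block (0.09), and without Huh7 control replicate 2 (0.13) or HCCLM3 knockdown replicate 3 (0.09). RRBP1 was at 1047 ± 44.4 and 1115 ± 26.4 CPM in Huh7 and at 207 ± 3.90 and 199 ± 8.88 CPM in HCCLM3. Its effects differed by -0.15 ± 0.05 (adjusted p = 0.0424), the same sign as for CKAP4. This was lost when any 1 of 8 libraries was left out, controls 1 and 3 and knockdowns 1 and 3 of Huh7, and controls 2 and 3 and knockdowns 1 and 2 of HCCLM3, with values of -0.16 to -0.10.

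Of 17 genes for junctions, tubules and partners of spastin, 1 rose and 6 fell in Huh7, and 2 rose and 5 fell in HCCLM3. ARL6IP1, a hairpin protein of ER tubules, fell from 316 ± 8.74 to 239 ± 9.99 CPM in Huh7 (-0.40 ± 0.04, adjusted p = 6.64e-09) and was at 487 ± 3.11 and 489 ± 14.4 CPM in HCCLM3. These effects differed by 0.41 ± 0.05 (adjusted p = 1.99e-06). TMEM33, a reticulon-binding membrane protein, fell in both lines, by 0.20 in Huh7 (adjusted p = 0.00161) and by 0.39 in HCCLM3 (adjusted p = 2.65e-07) on the log2 scale, but neither was called from FPKM by limma (-0.08 and -0.24). VAPB, a tether of the ER to other organelles, also fell in both, by 0.22 (adjusted p = 0.00031) and 0.34 (adjusted p = 2.38e-06). ARL6IP5, which encodes a protein of the PRA1 family, fell in HCCLM3 by 0.32 (adjusted p = 0.000843).

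Of 9 Rab and SNARE genes of ER fusion, 4 rose in Huh7, as did 16.3% of all features. In HCCLM3 2 rose and 1 fell, as did 15.1% and 15.5% of all features. RAB3GAP2, a subunit of the complex that activates RAB18, rose by 0.17 ± 0.04 in Huh7 (adjusted p = 0.00285) and by 0.16 ± 0.04 in HCCLM3 (adjusted p = 0.00778), where the call was lost without control replicate 3 (0.12). SEC22B, an ER SNARE, rose from 91.1 ± 1.19 to 109.5 ± 4.54 CPM in Huh7 (0.27 ± 0.04, adjusted p = 1.92e-05) and fell to 60.3 ± 2.23 from 65.5 CPM in HCCLM3 (-0.12 ± 0.04, adjusted p = 0.0368). The HCCLM3 call of SEC22B was lost without control replicate 1 or 2 or knockdown replicate 2 or 3 (-0.13 to -0.09). The 4 fusion genes called in Huh7 were higher, where ATL3 was lower, and the other 5 were not called there.

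Of 7 receptors of ER autophagy, 1 rose in Huh7, CCPG1 (0.22 ± 0.04, adjusted p = 0.00029), and 1 fell in HCCLM3, SEC62 (-0.14 ± 0.04, adjusted p = 0.0137), a call lost without knockdown replicate 3 (-0.10). FAM134B, a reticulon-like receptor for ER sheets, was at 14.4 ± 0.62 and 14.8 ± 0.51 CPM in Huh7 and near 3 counts per library in HCCLM3. Of 10 tested partners and receptors of Nogo, 3 fell in Huh7 and 4 in HCCLM3, as did 15.1% and 15.5% of all features. RTN4R, the Nogo receptor, was low and fell in both lines, from 4.28 ± 0.30 to 2.64 ± 0.19 CPM (-0.69 ± 0.15, adjusted p = 0.00102) in Huh7, and to 3.52 ± 0.31 from 5.05 ± 0.26 CPM in HCCLM3 (-0.52 ± 0.15, adjusted p = 0.00881). NUS1, the Nogo-B receptor, which is also a subunit of the dolichol-producing enzyme, fell from 123 ± 3.58 to 96.6 ± 4.45 CPM in Huh7 (-0.35 ± 0.04, adjusted p = 1.31e-06), and to 47.1 ± 1.07 from 55.9 ± 2.91 CPM in HCCLM3 (-0.25 ± 0.05, adjusted p = 0.000272). RTN4, RTN4R and NUS1 were lower after knockdown in both lines, but 7 of the 10 were not called in Huh7 and 6 in HCCLM3. DHDDS, the partner of NUS1 in that enzyme, was not called in either line, at -0.01 ± 0.06 and -0.03 ± 0.06.

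The translocon and oligosaccharyltransferase list, 26 genes of rough ER, gave 5 that rose and 3 that fell in Huh7 (median 0.03) and 14 that fell in HCCLM3 (median -0.14). Of all features 16.3% rose and 15.1% fell in Huh7, which the list's counts there are near, and 15.5% fell in HCCLM3. SRPRA, a subunit of the receptor for signal recognition particles, fell from 195 ± 3.41 to 154 ± 2.24 CPM in Huh7 (-0.34 ± 0.04, adjusted p = 2.65e-07), and to 129 ± 6.57 from 199.5 ± 4.72 CPM in HCCLM3 (-0.62 ± 0.04, adjusted p = 1.55e-11). TRAM1 and OSTC also fell in both lines, by 0.23 and 0.52, and by 0.20 and 0.57. The difference between the lines was called for 11 of the 26, all lower in HCCLM3, as were 11.3% of all features. The difference for CKAP4 had the same sign.

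**Figure D5:**
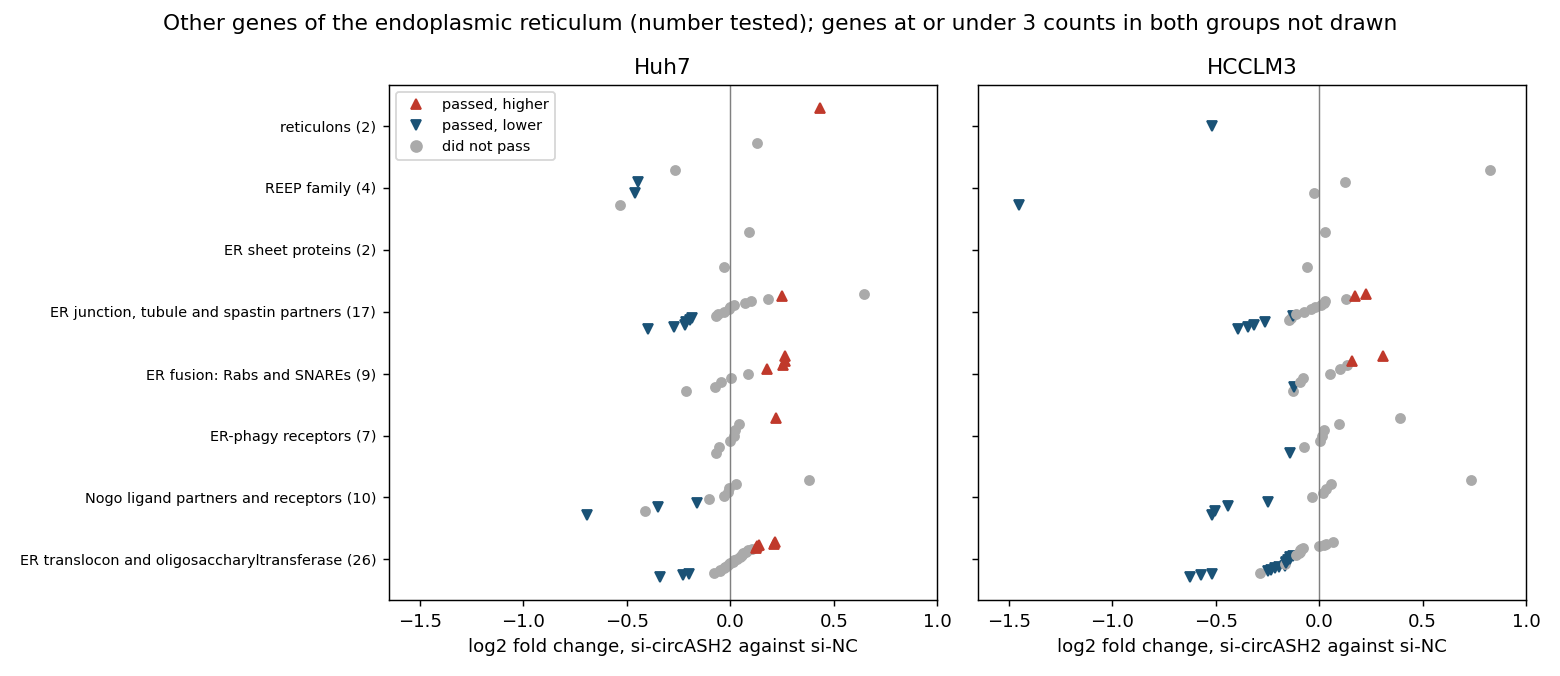
Log2 fold change of si-circASH2 against si-NC (horizontal axis) for the tested genes of 8 lists without the 7, in Huh7 and in HCCLM3, with triangles for genes that passed the test. The translocon list has 14 genes lower in HCCLM3 and 3 in Huh7.

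The genes whose pattern was nearest to that of each of the 7 were found by Pearson correlation of log2 CPM centred within each line, over the 12 libraries, among 10915 candidates. The centring kept the knockdown step of each line, and the libraries and their scaling are shared, so these values are a description. Nearest to RTN4 were UHMK1 (r = 0.9945), a kinase, TMEM245 (0.9939), a membrane protein, and RAB14 (0.993), a small GTPase of endosomes and the Golgi. UHMK1 changed by -1.23 ± 0.04 in Huh7 and -0.74 ± 0.04 in HCCLM3, RAB14 by -0.92 ± 0.04 and -0.60 ± 0.04, and TMEM245 by -0.55 ± 0.04 and -0.35 ± 0.04. In all 3, as in RTN4, the effect was smaller in HCCLM3, but genes picked for the pattern of RTN4 share this by selection. All 3 also held TTATACCA in a 3′ UTR, shown here for comparison with RTN4. It is not particular to the neighbours of RTN4, since CFAP97 and PAXBP1, near ATL3 and REEP3 in pattern, and EHD1, the nearest to CKAP4, held it too.
UHMK1, chr1:162524037-162524066, plus strand: tgaagcactgaTTATACCAaaaaaaaaaga
TMEM245, chr9:109015673-109015702, minus strand: ttcccctaagtTTATACCAcaaaatgatgg
RAB14, chr9:121180767-121180796, minus strand: tttatctttttTTATACCAttttatccttt

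These genes have longer 3′ UTRs than RTN4, of 7215, 5308 and 3259 bases, and among genes of like length 14.1%, 9.84% and 7.01% held TTATACCA. Over all tested genes with a 3′ UTR, 364 of the 2051 that held either sequence of 7 bases were called lower in both lines (17.7%), and 568 of the 11940 without it (4.76%). Among the listed genes other than the 7 the counts were 5 of 17 and 3 of 57. Because the sequences were found on these fold changes, neither pair of shares is independent of them. Neither pair was matched for 3′ UTR length, and long UTRs hold the sequences more often. The 3 neighbours of RTN4 were chosen on these values too, so their matches and the shares by length are a description only.

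For the other genes the nearest patterns were FN3KRP, FAM213B and EIF4B for RTN3 (r = 0.9055 for the first), VCPKMT, SMPDL3A and SRPK1 for ATL2 (0.9915), NSA2, CFAP97 and AASDHPPT for ATL3 (0.9781), and TNKS2, PAXBP1 and IFNAR1 for REEP3 (0.9844). Those of REEP5 were PAPSS2, CYR61 and ARHGDIB (0.9856), and those of CKAP4 were EHD1, SUOX and SOX12 (0.9862). CYR61, which encodes a secreted matrix protein, went from 15.7 ± 1.13 to 54.4 ± 4.42 CPM in Huh7, and in HCCLM3 to 16.4 ± 0.92 from 13.1 ± 1.01 CPM. Its step in Huh7 was larger than that of REEP5, and its shape over the libraries was alike. Among the 7 themselves, r over the 12 libraries was 0.924 for ATL2 and REEP3, 0.898 for RTN4 and ATL3, 0.712 for REEP5 and CKAP4, and -0.875 for RTN4 and REEP5. These values, too, hold the knockdown steps given above.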

How the data were processed

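RNA was sequenced in 12 libraries, per the labels' protocols from total RNA with a SMARTer mRNA kit. The authors deposited a table of counts per gene and, per the file headers, a table of FPKM for the same genes. Genome builds named in the submitters' processing notes are hg38, GRCm38 and mm10, without roles, while aligner, counter and strand are not given in the sources. Libraries were grouped by their labels. Counts were fitted with edgeR 4.0.16 in R 4.3.3 (filterByExpr with a minimum count of 10, TMM, robust quasi-likelihood fit with 1 coefficient per group, 8 residual degrees of freedom, Benjamini-Hochberg adjustment over 16946 features, threshold 0.05). Features with an assembled MSTRG identifier made up 2505 of those tested. The comparisons were the knockdown in each line, their difference (HCCLM3 minus Huh7) and HCCLM3 against Huh7 within si-NC. DESeq2 1.42.0 and limma 3.58.1 on log2(FPKM + 1) served as alternatives, beside other scalings, no filter, each line alone, a replicate block and leaving out each library. The fits were tested on simulated counts.

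The 7 genes and all lists were chosen with earlier results of these data known. All 7 are named, and up to 5 genes per list with the smallest p in a knockdown comparison and at least 1 CPM, and the 3 nearest patterns per gene. Outside this rule, ATL1, DHDDS, SRP19, JMJD1C and TCP11L2 were named after their values were seen, and 1 gene that the rule names is counted in its list but not reported here. Replicates were compared in pairs: the chi-square per degree of freedom was 3.72 to 8.02 over 12 pairs, so none was treated as the same library. The level of 3 counts in 1 library was 0.0981 to 0.105 CPM. Of 14441 tested features with a symbol, 14081 were found in GENCODE 29.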

Additional observations from a re-analysis of the deposited data

Results flagged for a closer look

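The results given here are differences between the knockdown effects of the lines, HCCLM3 minus Huh7, on the log2 scale. They passed edgeR's test of the difference itself, and for the 4 ER-shaping genes they are a description. These were RTN3 at 0.18, RTN4 at 0.39, REEP5 at -0.38 and CKAP4 at -0.25.

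Of the 77 listed genes, the difference was called higher for 6 and lower for 17, and not all of these are named. That is 29.9% called, against 20.9% of all features. Among those named, the effect was higher in HCCLM3 for REEP6 at 0.57, REEP4 at 0.44, ARL6IP1 at 0.41 and TBC1D20, a GTPase-activating protein for RAB18, at 0.17 (adjusted p = 0.026). It was lower in HCCLM3 for RTN2 at -0.95, SEC22B at -0.38 (adjusted p = 3.74e-05), OSTC at -0.37, SSR3 at -0.36, TRAM1 at -0.29, SRPRA at -0.28, RPN2 at -0.22, CCPG1 at -0.20, TMEM33 at -0.20 and RRBP1 at -0.15. Leaving out 1 library ended the call of TMEM33 (-0.20 to -0.17) for Huh7 controls 2 and 3, Huh7 knockdown 3, HCCLM3 controls 1 and 2 and HCCLM3 knockdown 2. It ended that of CCPG1 (-0.18 to -0.17) for Huh7 control 2, Huh7 knockdown 3 and HCCLM3 control 2, and that of TBC1D20 (0.15 to 0.17) for Huh7 control 1, HCCLM3 control 3 and HCCLM3 knockdown 1. SSR3 (adjusted p = 7.14e-05) and RPN2 (adjusted p = 0.00212) are subunits of the translocon-associated complex and of the oligosaccharyltransferase. SSR3 rose in Huh7 from 175 ± 5.52 to 191 ± 8.13 CPM, a call lost without control replicate 2 or knockdown replicate 2 or 3 (0.11), and fell in HCCLM3 from 183 ± 9.16 to 156 ± 3.11 CPM.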

How the results depend on the processing

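RTN4, REEP5 and ATL3 kept their direction and their side of the threshold in both knockdown comparisons under all alternatives run, with RTN4 between -1.36 and -1.29 in Huh7 and between -0.95 and -0.90 in HCCLM3. Of 2237 gene values under alternatives, 2075 kept direction and side of the threshold, 120 lost and 24 gained the call, and 18 changed sign. Without Huh7 control replicate 1, 2 of the 7 genes were called lower in Huh7 in place of 4 (2 to 4 over all libraries left out). With limma on FPKM (a pseudocount of 1, of 0.1, or all features above 0) 1 gene, RTN3, was called higher in HCCLM3 in place of 0. The count of genes with a higher effect in HCCLM3 was 1 in place of 2 with a pseudocount of 0.1, with all features above 0, and for 4 single libraries left out (1 to 2 over all). ATL2 lost its HCCLM3 call with limma over all features above 0 (-0.18). In the translocon list, 13 to 16 genes fell in HCCLM3 over all alternatives, 2 to 7 rose in Huh7, and 8 to 15 were lower in the difference. Over all alternatives the fusion list gave 1 to 4 that rose in HCCLM3 in place of 2, and the junction list 4 to 6 that fell in each line in place of 6 in Huh7 and 5 in HCCLM3. The Nogo list gave 2 to 4 that fell in HCCLM3 in place of 4.

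Signs changed with 1 library left out around values that were not called. The difference between the lines ranged from -0.0831 to 0.0014 for ATL3. In Huh7 the range was -0.0176 to 0.20 for RTN1, -0.16 to 0.059 for ARL6IP5 and -0.0985 to 0.114 for S1PR2, which was 0.00505 with upper quartile factors and 0.00518 with library size only. In HCCLM3 it was -0.125 to 0.041 for REEP4, -0.0489 to 0.242 for REEP6, -0.011 to 1.72 for REEP1, -0.0129 to 0.0286 for ARL6IP1, -0.0166 to 0.0466 for CCPG1, -0.94 to 1.33 for FAM134B and -0.0182 to 0.0405 for BACE1. The cause was not tested.

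Replicate numbers did not pair the samples, with correlations of the deviations of same-numbered libraries between -0.203 and 0.104, and not every library correlated best with its own number. With the replicate block 5349 features were called in Huh7 against 5314, 5215 against 5182 in HCCLM3 and 3533 against 3538 for the difference. Between the lines with si-NC it was 13383 against 14445. The block was set within each line, so this contrast compared the lines at the fitted level of replicate 1. These si-NC counts are thus not of the same quantity. No call of the 7 genes changed with the block. RTN1 was at or under 3 counts per library in both HCCLM3 groups, so no fold change is given for it there.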
